A study of Mus musculus with 12 samples.

Results

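Potassium channel subunit genes were examined in mouse brain under chronic unpredictable mild stress (CUMS), with and without krill oil. A gene was a member when its symbol was Kcn, then letters, then a number, which 92 of the 55385 genes in the table met. Of these, 80 had a mean of at least 0.1 FPKM (fragments of a transcript scaled to its length and to the mapped fragments of the library) over the 12 libraries and were described, against 21393 genes of all kinds at that level. The mice were wild-type males of strain C57/BL6J, bought at 8 weeks of age, and each of 4 groups had 3 libraries, each from 1 mouse. The tissue is labelled brain, and the methods of the study describe it as the whole brain. C_W mice received water into the stomach in place of the oil and were not stressed, and C_O mice received krill oil at 200 mg/kg/day by the same route for 5 weeks without stress. MS_W mice received water with 4 weeks of CUMS, a schedule of changing mild stressors, and MS_O mice received both the krill oil for 5 weeks and the 4 weeks of CUMS. Water was the control for the oil, so any effect of a fat supplement as such cannot be told apart from an effect of krill oil. Libraries are named by group and mouse number, such as MS_W95.

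Potassium channels let potassium leave or enter the cell, and so set the resting potential, the shape of the action potential and the firing rate of neurons. Voltage-gated pores (Kcna, Kcnb, Kcnc, Kcnd, Kcnh, Kcnq) open on depolarisation, calcium-activated pores (Kcnma, Kcnn) follow intracellular calcium, inward rectifiers (Kcnj) and two-pore leak channels (Kcnk) hold the membrane near rest, and several families (Kcnf, Kcng, Kcns, Kcnv, Kcnab, Kcnip, Kcne, Kcnmb) only modify other pores. In glia and in the choroid plexus, inward rectifiers and pores modified by Kcne subunits move potassium between the extracellular space, blood and cerebrospinal fluid.

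The estimated counts per library summed to between 50912906 and 75678721. The highest of these sums exceed the valid reads that the paper lists for any library. How the counts were made is not given in the sources used here, and the DESeq2 and edgeR results rest on them. Over all genes, a pair of libraries, C_O72 and MS_W95, resembled each other more than the remaining 10. The correlation of log2(FPKM + 1) was 0.970 between the pair, at most 0.937 between either and any of the other 10, and at least 0.959 among those 10. Genes of the hindbrain and spinal cord (10 genes, 8 of them Hox genes) summed to 79.7 FPKM in C_O72, to 28.8 in MS_W95 and to at most 0.0978 in any other library. Genes of excitatory neurons of cortex and hippocampus (8 genes, Slc17a7 and Tbr1 among them) summed to 39.8 and 53.6 FPKM in that pair and to between 134 and 387 in the other 10. The cerebellar granule cell genes Gabra6 and Cbln3 were 23.9 and 60.9 FPKM in C_O72 and 91.3 and 222 FPKM in MS_W95, and at most 0.129 and 0.196 FPKM in the other 10. Defining genes of the cerebellum and hindbrain were thus near 0 in 10 of 12 libraries of tissue described as whole brain, and whether the libraries came from the same parts of the brain cannot be told from the labels. Call counts of each comparison are given with and without these 2 libraries. In such bulk tissue, fewer cells of a type and less RNA per cell cannot be told apart.

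The members were expressed over a wide range. Of the 80, 25 had a mean of at least 10 FPKM, 43 lay from 1 to under 10 and 12 lay from 0.1 to under 1. The 5 most abundant were Kcnj4, Kcnj10, Kcnk1, Kcnab2 and Kcnip3. Kcnj4, a strong inward rectifier of forebrain neurons, averaged 65.8 FPKM, and Kcnj10, the main inward rectifier of astrocytes, averaged 49.6 FPKM. Kcnk1, a two-pore leak subunit, averaged 49.3 FPKM, Kcnab2, a beta subunit of Kcna channels, 48.9 FPKM, and Kcnip3, a calcium-binding subunit of Kcnd channels, 41.5 FPKM. Summed over the 80 members, FPKM lay between 761 in MS_W31 and 909 in MS_O46.

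Other families were led by single members as well. Kcna2 averaged 17.5 FPKM among the Kcna pores and Kcnd2 18.6 among Kcnd. Kcnc1, a pore of fast-spiking neurons, averaged 25.8 FPKM. Kcnh3, an ELK-type pore of the forebrain, averaged 25.3 and Kcnq5, which carries part of the M current, averaged 7.44 FPKM. Kcnt1, a sodium-activated pore, averaged 11.8, Kcnn2, a small-conductance calcium-activated pore, 3.52, and Kcnmb4, the neuronal beta subunit of the BK channel, 16.1 FPKM. Kcnf1, which forms no current alone, averaged 36.5 FPKM, and Kcne2, a single-span subunit, 2.26 FPKM.

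Near the limit of 0.1 FPKM, Kcng3 (0.118 FPKM) and Kcnq1 (0.130 FPKM) were just inside, and Kcnn4 (0.0775 FPKM) and Kcne3 (0.0593 FPKM) were just outside. Of the 12 members under the limit, Kcnj1, the inward rectifier of the kidney tubule, was listed at 0.0001 FPKM, the lowest value of the table, in every library.

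**Figure D1:**
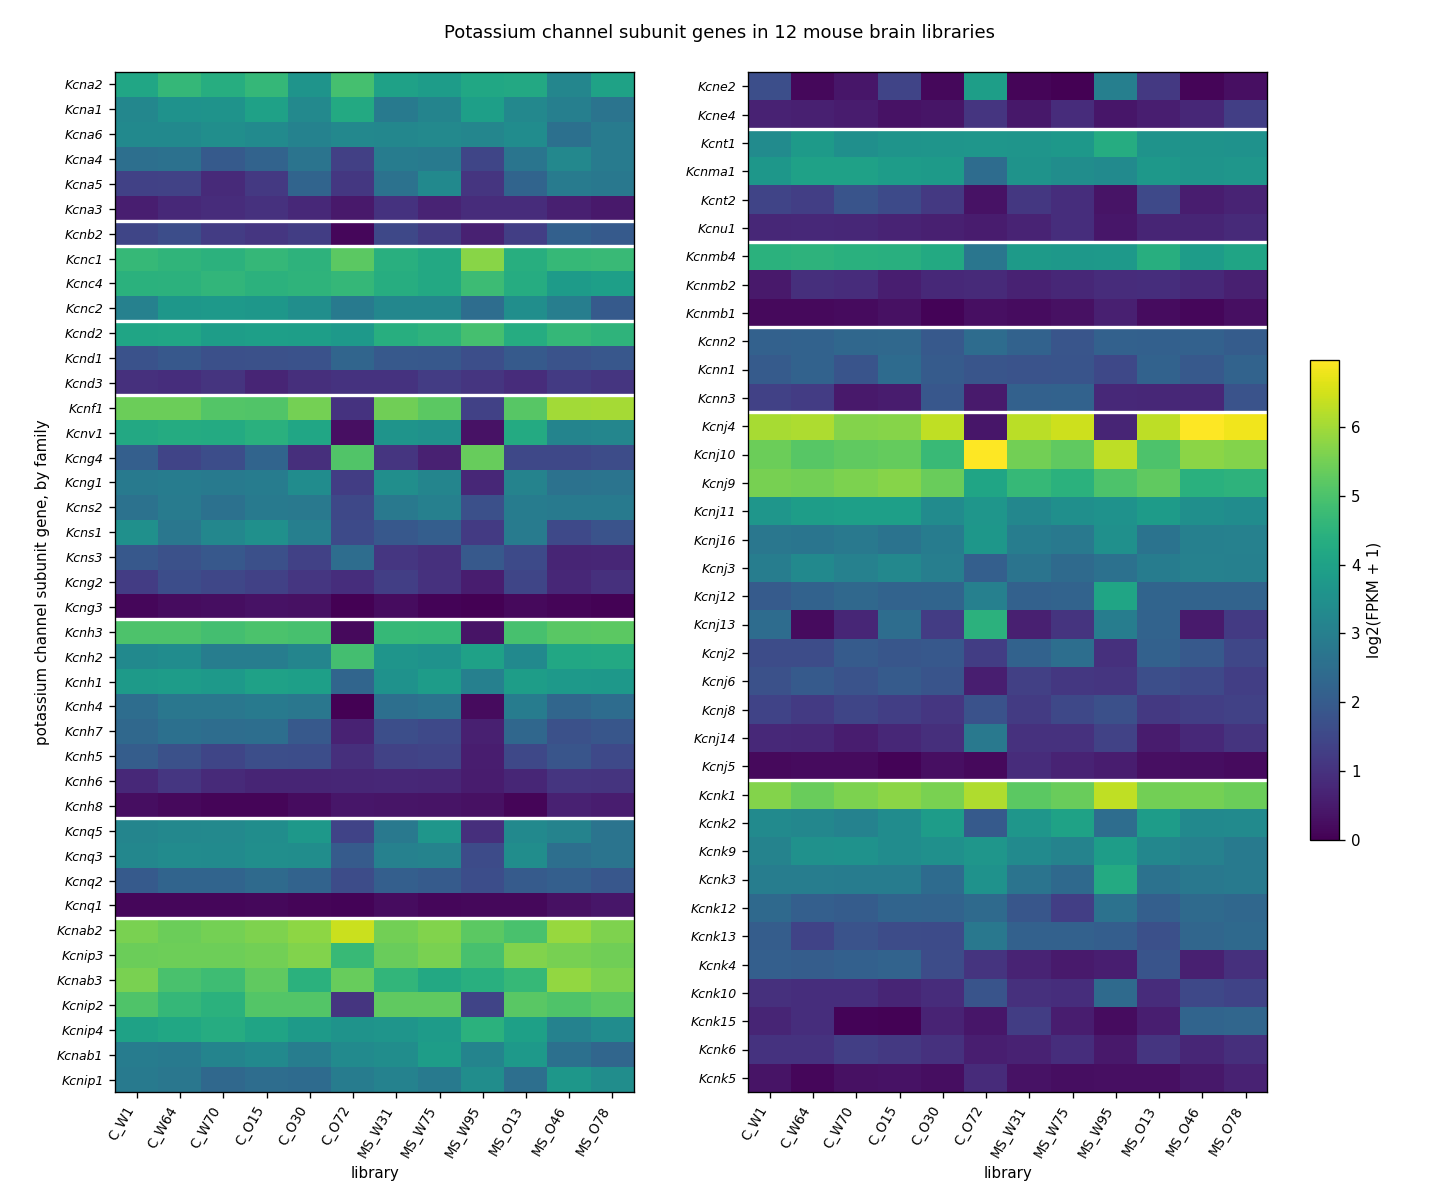
Each cell is log2(FPKM + 1) of 1 of 77 genes (rows, by family and then by mean level) in 1 of the 12 libraries (columns, by group). C_O72 and MS_W95 carry dark cells for Kcnh3, Kcnj4, Kcnv1, Kcnf1 and Kcnip2 and bright cells for Kcng4.

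The pair C_O72 and MS_W95 ranked as the 2 lowest of 12 libraries for 26 of the 80 members (32.5%), against 11.7% of all 21393 genes, and as the 2 highest for 17 members (21.2%), against 16.3% of all genes. The examples that follow were chosen after their values were seen, apart from those already named. Kcnh3 was 0.134 FPKM in C_O72 and 0.298 in MS_W95, and lay between 24.1 and 35.9 in the other 10. Kcnj4 was 0.344 and 0.651 FPKM in the pair, against 50.3 to 124 in the others. Kcnv1, a silent subunit that alters Kcnb channels, was 0.218 and 0.275 FPKM, against 7.92 to 20.5. These 3 genes were close to absent from both libraries and well expressed in every other.

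Kcnf1 (1.02 and 1.52 FPKM, against 32.9 to 64.8) and Kcnip2, a calcium-binding subunit of Kcnd channels (1.11 and 1.71, against 20.8 to 37.6), followed the same order. Both genes were lower in the pair than in any other library without reaching the lowest listed value.

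In the other direction, Kcng4, a silent subunit, was 32.9 FPKM in C_O72 and 39.9 in MS_W95, against 0.553 to 3.78 in the other 10. Kcnj10 was 125 and 76.7 FPKM, against 25.6 to 52.9, and its partner Kcnj16 was 11.96 and 10.2 FPKM, against 5.32 to 7.41. Genes of the cerebellum (9 genes) summed to 610 FPKM in C_O72 and to 1485 in MS_W95, against 46.7 to 104 in the others, and genes of astrocytes (8 genes) to 956 and 911 FPKM, against 428 to 521. Aldoc alone made up 649 and 603 FPKM of the astrocyte sums of the pair. Aqp4, Aldh1l1, Gja1 and Gjb6 were also higher in the pair than in the other 10. Slc1a2 was lower, at 67.6 and 60.1 FPKM against 86.7 to 132.5, and Slc1a3 was lowest in C_O72 and highest in MS_W95. The part of these cell and region genes in the levels of the channel genes was not tested.

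**Figure D2:**
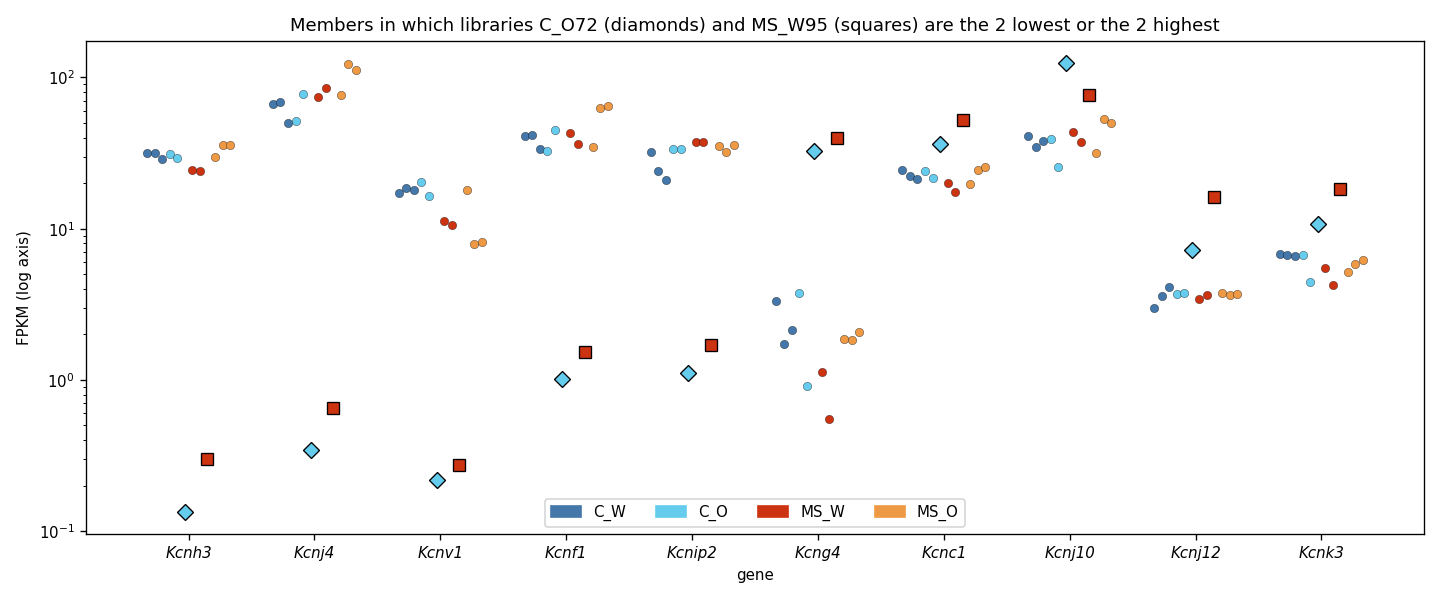
FPKM on a log axis for 10 members, with 1 point per library coloured by group, C_O72 as a diamond and MS_W95 as a square. In the 5 genes on the left both symbols lie under all other libraries, as for Kcnh3 at 0.134 and 0.298 FPKM, and in the 5 on the right both lie above them, as for Kcng4 at 32.9 and 39.9 FPKM.

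The effect of CUMS without krill oil was read from MS_W against C_W. A gene was called by the criteria of the study when its group means of FPKM differed by more than 1 on the log2 scale and its limma p before adjustment was under 0.05. By these criteria 2 members were higher in MS_W (2.5%, the share also called higher among all genes, 2.5%) and 3 were lower (3.75%, against 2.1% of all genes). The higher ones were Kcnj5 and Kcna5, and the lower ones were Kcnk4, Kcns1 and Kcnh7. None of the 80 passed a Benjamini-Hochberg adjusted p of 0.05 over all genes tested in limma, which 0.00467% of all genes did. With limma 11 members (13.8%) had a p under 0.05 before adjustment, against 10.5% of all genes. On the estimated counts, edgeR passed 0 members after adjustment (0.00467% of all genes) and DESeq2 passed 2, Kcnk4 and Kcnj5 (1.87% of all genes).

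Kcnj5 encodes a G protein-gated inward rectifier subunit (GIRK4), the least abundant of the 4 GIRK genes here, and lies on chr9:32314707-32344350 of mm10, minus strand (ENSMUSG00000032034). It was 0.137, 0.153 and 0.161 FPKM in C_W1, C_W64 and C_W70, and 0.849, 0.622 and 0.473 FPKM in MS_W31, MS_W75 and MS_W95. It was 0.0533, 0.214 and 0.124 FPKM in C_O15, C_O30 and C_O72, and 0.215, 0.186 and 0.142 FPKM in MS_O13, MS_O46 and MS_O78. All 3 MS_W libraries were above all 9 others, C_O72 was not raised, and MS_W95 was the lowest of the MS_W libraries. The estimated counts behind these values were 155 to 257 in MS_W and 20 to 84 elsewhere. The mean of MS_W was 4.32 times that of C_W (0.648 ± 0.189 against 0.150 ± 0.0123 FPKM, SD, n = 3 each). On the log2(FPKM + 1) scale, which understates the change of so low a gene, the difference was 0.51 ± 0.09 (SE), with an adjusted p of 0.121 in limma. That p ran from 0.0023 with DESeq2 to 0.573 over the alternatives. It was 0.0172 in limma without C_O72 and MS_W95, where Kcnj5 was the only member past the threshold (1.15% of all genes). The call by the criteria of the study was kept under 21 of 22 alternatives. It was lost in an ordinary linear model with library size. A fold taken from the limma difference, 0.51, is also under the threshold of 1, and was not among the 22.

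The other 3 GIRK genes had values in the opposite direction. Kcnj9 (GIRK3) was 45.2, 43.6 and 47.3 FPKM in C_W and 24.6, 20.96 and 31.8 in MS_W. Kcnj3 (GIRK1) was 6.70, 8.88 and 7.37 FPKM in C_W and 5.38, 4.33 and 5.02 in MS_W. Kcnj6 (GIRK2) was 2.29, 2.93 and 2.42 FPKM in C_W and 1.49, 1.20 and 1.09 in MS_W. The groups did not overlap in any of the 3, but none met the criteria of the study, with log2 differences of -0.81 ± 0.37, -0.55 ± 0.24 and -0.65 ± 0.30 (SE) and limma adjusted p of 0.478, 0.471 and 0.486.

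Kcnk4 (TRAAK) is a two-pore leak channel opened by membrane stretch and by polyunsaturated fatty acids such as arachidonic acid, encoded on chr19:6923966-6934515, minus strand (ENSMUSG00000024957). It was 3.36, 3.13 and 3.44 FPKM in C_W and 0.620, 0.406 and 0.513 FPKM in MS_W, so the groups lay far apart and MS_W95 was no exception. It was 3.62, 2.09 and 1.09 FPKM in C_O15, C_O30 and C_O72, and 2.48, 0.540 and 0.972 in MS_O13, MS_O46 and MS_O78. The mean of C_W was 6.45 times that of MS_W (3.31 ± 0.159 against 0.513 ± 0.107 FPKM, SD, n = 3 each). The log2 difference was -1.51 ± 0.31 (SE), with a limma adjusted p of 0.185 and a range from 0.000249 with DESeq2 to 0.550 over the alternatives. It met the criteria of the study under all 23 alternatives, with log2 differences from -2.77 to -1.46. Its exons overlap Catsperz on the same strand, so the reads of the 2 genes may be split uncertainly. Catsperz was 2.35 to 3.59 FPKM in C_W and 0.490 to 0.704 in MS_W.

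The relatives of Kcnk4 in its subfamily were not called. Kcnk2 (TREK-1) differed between MS_W and C_W by 0.18 ± 0.47 (SE) and Kcnk10 (TREK-2) by 0.50 ± 0.40 on the log2 scale, with limma adjusted p of 0.895 and 0.644. On the 10 libraries without C_O72 and MS_W95 the limma difference of Kcnk2 was 0.62 ± 0.20 (adjusted p = 0.201), with both MS_W libraries above all C_W libraries, and that of Kcnk10 was 0.01 ± 0.17 (adjusted p = 0.989). Kcnk2 was lowest, at 2.93 and 4.67 FPKM, and Kcnk10 highest, at 2.49 and 4.33 FPKM, in C_O72 and MS_W95.

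The 250 bases before the start of 4 called genes are shown since these genes carry the values described: Kcnj5 and Kcnk4 had the 2 smallest adjusted p under CUMS on water, Kcna5 was called under CUMS on both diets, and Kcnk15 had the largest fold of any called gene. They come from RefSeq on build GRCm38.p6, read on the strand of the gene, and capitals mark the GC box GGGCGG on either strand.
Kcnj5 (chr9:32344345-32344594, minus strand): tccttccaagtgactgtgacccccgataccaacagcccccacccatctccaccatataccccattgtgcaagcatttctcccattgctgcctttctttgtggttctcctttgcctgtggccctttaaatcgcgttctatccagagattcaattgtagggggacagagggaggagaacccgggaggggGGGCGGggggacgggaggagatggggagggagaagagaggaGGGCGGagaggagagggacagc
Kcnk4 (chr19:6934516-6934765, minus strand): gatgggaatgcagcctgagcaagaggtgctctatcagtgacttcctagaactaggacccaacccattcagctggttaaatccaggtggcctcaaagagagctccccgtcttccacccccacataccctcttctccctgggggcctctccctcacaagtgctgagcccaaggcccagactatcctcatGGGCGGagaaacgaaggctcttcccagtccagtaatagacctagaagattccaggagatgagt
Kcna5 (chr6:126535556-126535805, minus strand): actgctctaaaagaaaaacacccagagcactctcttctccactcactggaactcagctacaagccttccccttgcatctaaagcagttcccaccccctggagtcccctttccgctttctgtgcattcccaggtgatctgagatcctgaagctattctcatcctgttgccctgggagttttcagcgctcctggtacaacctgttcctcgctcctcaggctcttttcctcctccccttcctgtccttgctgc
Kcnk15 (chr2:163853500-163853749, plus strand): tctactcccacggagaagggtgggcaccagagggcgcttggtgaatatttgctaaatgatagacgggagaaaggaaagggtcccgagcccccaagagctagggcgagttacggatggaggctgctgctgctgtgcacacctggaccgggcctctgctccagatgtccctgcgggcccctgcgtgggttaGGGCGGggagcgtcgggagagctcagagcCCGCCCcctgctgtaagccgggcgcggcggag
Kcnj5 and Kcnk15 held 2 GC boxes each, Kcnk4 held 1 and Kcna5 none. A promoter entry was found for 57 of the 80 members, and 30 of the 57 (52.6%) held a GC box, against 32.7% of all 32851 promoters of that length. The members' promoters had a median GC content of 61.2%, against 52.4% over all promoters. The part of base composition in the share with a GC box was not tested. The cyclic AMP element TGACGTCA was in none of the 57 (1.55% of all promoters), the TATA box TATAAA in 2 (12.4% of all) and the E-box CACGTG in 3 (6.02% of all). Each was searched on both strands, and none of these motifs contains another.

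Kcns1 encodes a silent subunit that slows Kcnb channels. It was 10.3, 5.84 and 8.43 FPKM in C_W and 2.77, 3.24 and 1.26 FPKM in MS_W, with no overlap. On the log2 scale the difference was -1.44 ± 0.50 (SE), with a limma adjusted p of 0.367. It no longer met the criteria without C_W1 (-1.28) or without MS_W95 (-1.17), and met them without both C_O72 and MS_W95.

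Kcnh7 encodes an ERG-type pore, which helps set firing adaptation. It was 4.16, 4.96 and 4.61 FPKM in C_W and 2.17, 1.89 and 0.530 FPKM in MS_W, again with no overlap. Its difference was, in log2 units, -1.21 ± 0.42 (SE; limma adjusted p = 0.370). The call was lost without MS_W95 (-0.88) and in an ordinary linear model with library size. The exons of Kcnh7 overlap Gca on the other strand. The library kit marked strand, but whether counting used it is not stated. Gca was 2.95 to 3.98 FPKM in C_W and 2.60 to 2.87 in MS_W.

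Kcna5, a delayed rectifier pore also found in vessel walls and glia, was 1.54, 1.59 and 0.783 FPKM in C_W and 5.17, 8.94 and 1.09 FPKM in MS_W. MS_W95 lay among the C_W libraries while the other 2 MS_W libraries lay above them. The groups differed on the log2 scale by 1.15 ± 0.51 (SE; limma adjusted p = 0.468). The call was at the edge of the threshold, since leaving out any of 10 of the 12 libraries ended it, with values from 0.66 without MS_W75 to 1.25 without C_W64. Only 9 of 23 alternatives kept it. Quantile normalization, median centring, no filter on low values and only the 2 groups compared also ended it. Without C_O72 and MS_W95 the difference was 1.79 ± 0.36 (limma adjusted p = 0.0664), and the groups did not overlap.

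Kcnd2, the main pore of the A-type current that delays firing, had the third smallest limma p of the members and did not reach the fold of the criteria. It was 16.1, 16.6 and 13.8 FPKM in C_W and 19.7, 21.8 and 29.1 in MS_W, with no overlap. In log2 units the difference came to 0.56 ± 0.15 (SE; limma adjusted p = 0.281).

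Counting only whether the 2 groups overlapped, 19 of the 80 members (23.8%) had every MS_W library under every C_W library, against 8.22% of all genes, and 10 (12.5%) had every MS_W library above, against 16.3% of all genes. The 19 included Kcnh3, Kcnv1, Kcnq3, Kcnt2, Kcnmb4, Kcnma1 and Kcnj11 beside those given above. The median log2 difference was -0.12 over the members and 0.06 over all genes. Without C_O72 and MS_W95, 30 members were lower without overlap (13.7% of all genes) and 18 were higher (25.2% of all genes), now with 2 libraries against 3. Over all 3 libraries a group, the cortex and hippocampus genes summed to 335 to 387 FPKM in C_W and to 53.6 to 142 in MS_W (134 and 142 without MS_W95), and 6 of the 8 were lower without overlap. Genes of the striatum (8 genes) summed to 93.7 to 180 FPKM in C_W and to 687, 984 and 151 FPKM in MS_W31, MS_W75 and MS_W95, and 2 of them were higher without overlap. The hypothalamus list had 5 of its 10 tested genes higher without overlap, and its sum was 3.88 to 14.8 FPKM in C_W and 14.4 to 136 in MS_W, with MS_W95 the lowest. The sums of midbrain monoamine neurons (4.38 to 15.7 against 17.2 to 55.8 FPKM), of inhibitory neurons of cortex and basal ganglia (395 to 473 against 525 to 620), of meninges (7.57 to 13.2 against 15.99 to 23.6), of oligodendrocyte precursors (46.1 to 57.1 against 60.05 to 68.3) and of pericytes and smooth muscle (43.6 to 55.2 against 57.2 to 62.1) were higher in MS_W than in C_W without overlap. In the order given, 3 of 6, 2 of 7, 4 of 6, 2 of 4 and 1 of 6 genes of these lists were higher without overlap. Among the inhibitory neuron genes 1, Vip, was lower without overlap. Pvalb, also on the cerebellum list, made up 396 FPKM of the inhibitory neuron sum in MS_W95. Th, also on the olfactory bulb list, made up 21.2 and 12.5 FPKM of the monoamine sum in MS_W31 and MS_W75, and reached 12.8 FPKM in C_W64. In MS_W95 the largest parts were Tph2 (20.5 FPKM) and Slc6a4 (11.3 FPKM), and Slc6a4 was only 0.0129 and 0.0143 FPKM in MS_W31 and MS_W75. The immediate early genes (8 genes) summed to 224 to 303 FPKM in C_W and 43.0 to 182 in MS_W. The part of these lists in the levels of the channel genes was not tested.

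Scaling changed the balance of calls. With quantile normalization 1 member was higher and 6 were lower in MS_W, and with libraries centred on their median 1 was higher and 7 were lower, against 2 and 3. Over all genes the shares higher and lower were 2.0% and 2.65% with quantile normalization and 1.36% and 3.94% with centring, against 2.5% and 2.1%. Without C_O72 and MS_W95 the criteria called 3 members higher (3.49% of all genes) and 5 lower (2.31% of all genes), which included all 5 called on 12 libraries. The additional ones were Kcnn3 (higher), Kcns3 and Kcng4 (lower).

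**Figure D3:**
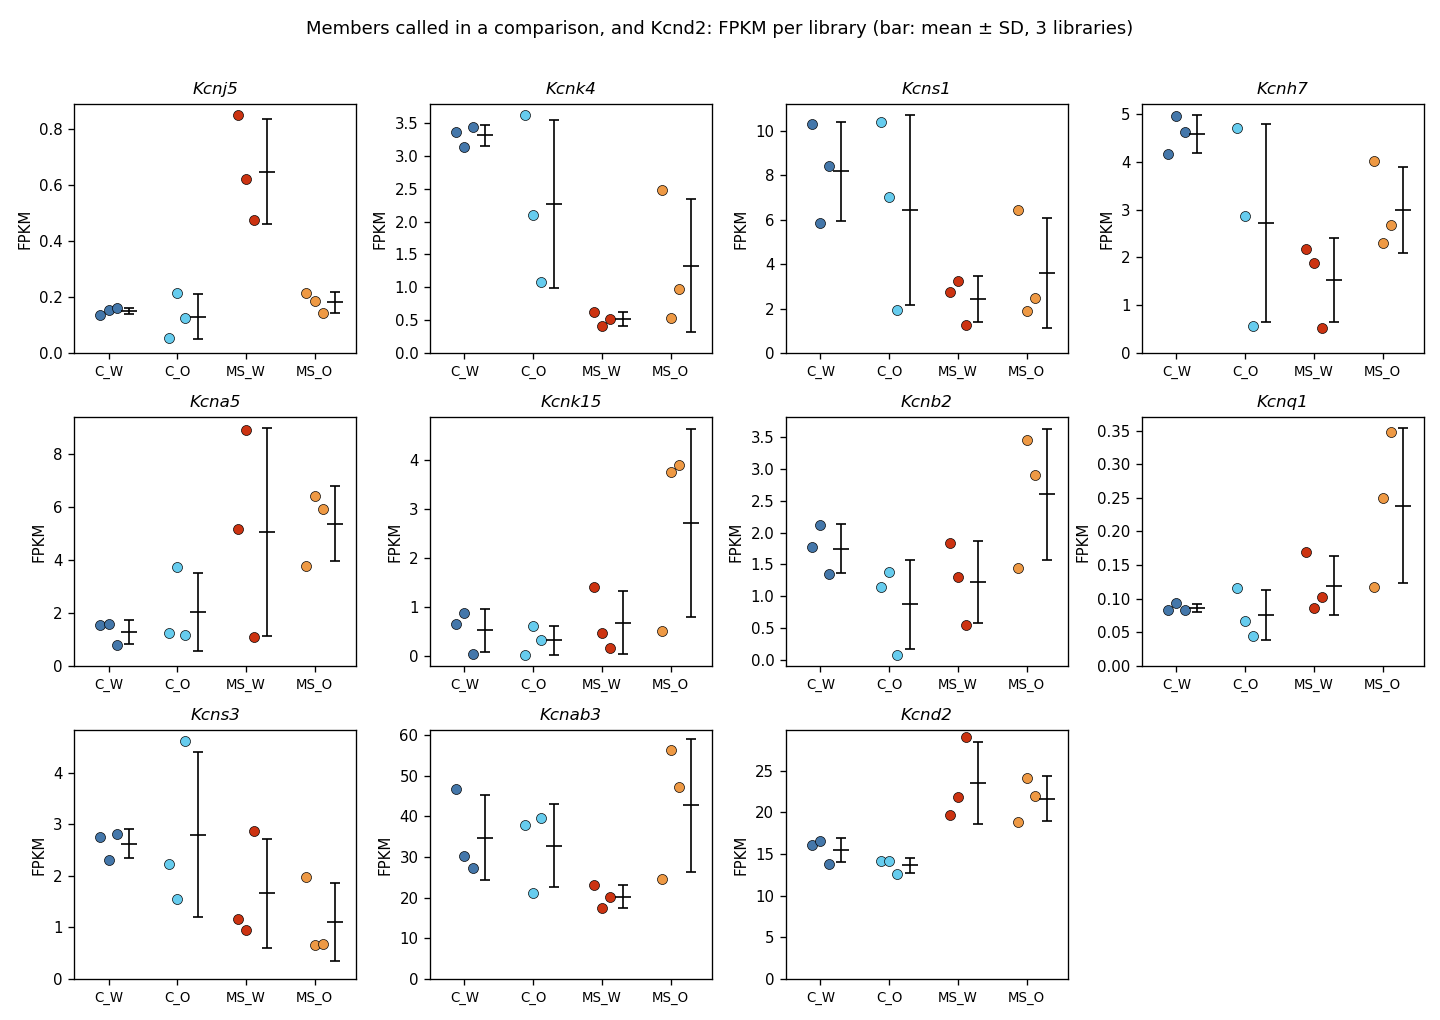
FPKM of 10 members called in a comparison and of Kcnd2, with 1 point per library, by group, and the mean ± SD of 3 libraries as a bar. For Kcnj5 the MS_W points (0.473 to 0.849 FPKM) lie above all others, and for Kcnk4 the MS_W points (0.406 to 0.620 FPKM) lie under all C_W points.

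The effect of CUMS in mice on krill oil was read from MS_O against C_O, which shares no library with MS_W against C_W. Both come from 1 limma fit and share its estimate of the spread, so their p are not independent. By the criteria of the study 4 members were higher in MS_O (5%, against 2.82% of all genes), namely Kcnk15, Kcnb2, Kcnq1 and Kcna5, and 2 were lower (2.5%, against 0.753% of all genes), Kcns3 among them. No member passed the adjusted threshold in limma (0.00467% of all genes did), where 10 (12.5%) had a p under 0.05 before adjustment, against 8.88% of all genes. edgeR passed 0 members after adjustment (0.00467% of all genes) and DESeq2 passed 2, Kcnd2 among them (0.862% of all genes). With quantile normalization the split was 3 higher and 3 lower (2.14% and 1.2% of all genes), and with median centring 2 higher and 3 lower (1.65% and 2.24% of all genes).

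Kcnk15, a two-pore subunit of the TASK group that gives little current alone, was 0.0334, 0.618 and 0.340 FPKM in C_O and 0.508, 3.76 and 3.90 FPKM in MS_O13, MS_O46 and MS_O78. The groups overlapped, since MS_O13 lay within the range of C_O and the other 2 MS_O libraries lay far above it. The mean of MS_O was 8.24 times that of C_O, and the log2 difference was 1.32 ± 0.45 (SE; limma adjusted p = 0.479). The call was lost without C_O15 (1.15), MS_O46 (1.05) or MS_O78 (1.03), and in an ordinary linear model with library size.

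Kcnb2, a delayed rectifier pore, was 1.15, 1.39 and 0.0888 FPKM in C_O15, C_O30 and C_O72 and 1.45, 3.44 and 2.90 FPKM in MS_O. The groups did not overlap, with MS_O13 close to C_O30. The log2 difference was 0.97 ± 0.33 (SE; limma adjusted p = 0.479), and the call was lost without C_O72 (0.62) or MS_O46 (0.80). It was also lost with edgeR and in an ordinary linear model with library size.

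Kcna5 was 1.23, 3.75 and 1.18 FPKM in C_O and 3.77, 6.45 and 5.95 FPKM in MS_O. The groups did not overlap, but C_O30 and MS_O13 lay within 0.1 FPKM of each other. On the log2 scale the difference was 1.14 ± 0.51 (SE; limma adjusted p = 0.561), and leaving out any of 8 libraries ended the call, with values from 0.95 without C_O72 to 1.14. Only 9 of 23 alternatives kept the call, and DESeq2 and edgeR were among those that lost it. Kcna5 was thus above the criteria in both CUMS comparisons and near their edge in each.

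Kcnq1, a pore best known from heart and epithelia, was 0.116, 0.0674 and 0.0442 FPKM in C_O and 0.118, 0.249 and 0.348 FPKM in MS_O. The estimated counts were 11 to 38 in C_O and 40 to 93 in MS_O, and MS_O13 was near C_O15. Its difference was, in log2 units, 0.20 ± 0.07 (SE; limma adjusted p = 0.501), and the call was lost without C_O72 (0.18) or MS_O78 (0.14). Kcnq1 also lost the call with median centring, with only the 2 groups compared and in an ordinary linear model with library size. Its exons overlap Kcnq1ot1 on the other strand, which lay between 0.137 and 0.256 FPKM in all libraries.

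Kcns3, another silent partner of Kcnb channels, was 2.23, 1.56 and 4.61 FPKM in C_O and 1.98, 0.654 and 0.678 FPKM in MS_O. The groups overlapped through MS_O13. In log2 units the difference came to -0.83 ± 0.34 (SE; limma adjusted p = 0.546), and the call was lost without C_O72 (-0.51), MS_O46 (-0.68) or MS_O78 (-0.69). It was also lost with no filter on low values, with only the 2 groups compared and in an ordinary linear model with library size.

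Kcnd2 and Kcnc4 had the smallest limma p in this comparison. Kcnd2 was 14.2, 14.1 and 12.6 FPKM in C_O and 18.9, 24.2 and 21.97 in MS_O, with a log2 difference of 0.62 ± 0.15 (SE; limma adjusted p = 0.479). All 6 CUMS libraries, on either diet, thus lay above all 6 libraries without CUMS for Kcnd2. The gene was picked for its small p in both comparisons, and the share of all genes with such a separation is not given. Taken singly, 16.3% of all genes were higher without overlap on water and 8.9% on krill oil. Kcnc4, a pore of the Kcnc family with A-type kinetics, was 21.3, 22.4 and 24.1 FPKM in C_O and 18.8, 13.1 and 14.2 in MS_O, with a difference of -0.54 ± 0.16 (SE; limma adjusted p = 0.479).

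Over the 80 members, 6 (7.5%) lay higher in MS_O without overlap, against 8.9% of all genes, and 6 (7.5%) lay lower, against 3.29% of all genes. The median log2 difference was 0.02 over the members and 0.03 over all genes. Without C_O72 and MS_W95 the criteria called 4 members higher (3.19% of all genes) and 3 lower (1.09% of all genes), of which 3, Kcna5, Kcnk15 and Kcnb2, were also called on 12 libraries. Kcnq1 and Kcns3 were not called there, and Kcne4 (higher), Kcns1, Kcng3 and Kcnk4 (lower) were added. Leaving out MS_O13 raised the count of calls from 6 to 10, and leaving out MS_O46 or MS_O78 lowered it to 2. The share of all genes called moved the same way, from 3.57% to 5.85% without MS_O13, 2.22% without MS_O46 and 2.55% without MS_O78. Genes of olfactory bulb interneurons (7 genes) summed to 8.71 to 27.1 FPKM in C_O and to 40.95, 213 and 222 FPKM in MS_O13, MS_O46 and MS_O78, and all 7 were higher without overlap, with the same 2 libraries on top as for Kcnk15. The part of this list in the levels of the channel genes was not tested.

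Krill oil without stress was read from C_O against C_W. No member met the criteria of the study in limma, where 0.865% of all genes were called higher and 0.897% lower, and none had a p under 0.05 before adjustment (3.55% of all genes) or passed the adjusted threshold (0.0% of all genes). edgeR and DESeq2 each called 1 member higher by the same thresholds, with the fold from each tool's own model (1.81% and 2.12% of all genes). This was Kcnj14, an inward rectifier, and neither tool passed any member after adjustment (0.0% and 0.255% of all genes). Kcnj14 was 0.734, 0.715 and 0.471 FPKM in C_W and 0.710, 0.928 and 6.03 FPKM in C_O15, C_O30 and C_O72, so that its higher mean rested on C_O72. One member (1.25%), Kcnab2, was higher in C_O without overlap, against 4.08% of all genes, and 3 (3.75%), Kcnmb4, Kcnh6 and Kcnu1, were lower, against 5.34% of all genes. Among the members with the smallest limma p were Kcnmb4 (-0.67 ± 0.35, log2 difference ± SE), Kcnb2 (-0.62 ± 0.33), Kcnj14 (0.80 ± 0.43) and Kcnh7 (-0.77 ± 0.42), and the smallest limma adjusted p of any member was 0.908. On 10 libraries, without C_O72 and MS_W95, these limma differences were -0.14 for Kcnmb4, -0.27 for Kcnb2, 0.15 for Kcnj14 and -0.24 for Kcnh7. Leaving out C_O30 brought 4 members past the criteria, leaving out C_O15 brought 3 and leaving out C_W1 brought 1, while leaving out C_O72 with MS_W95 brought none (0.818% of all genes in each direction). The share of all genes called was 1.76% on 12 libraries, 2.75% without C_O30, 4.15% without C_O15 and 1.92% without C_W1.

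Krill oil under stress was read from MS_O against MS_W. By the criteria of the study 2 members were higher in MS_O (2.5%, against 1.43% of all genes), Kcnab3 and Kcnk15, and 1 was lower (1.25%, against 1.39% of all genes), Kcnj5. None passed the adjusted threshold in limma (0.00467% of all genes did), and 5 (6.25%) had a p under 0.05 before adjustment, against 6.09% of all genes. edgeR passed 0 members after adjustment (0.00467% of all genes) and DESeq2 passed 1, Kcnj5 (0.373% of all genes).

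For Kcnj5 every MS_O library, at 0.142 to 0.215 FPKM, lay under every MS_W library, at 0.473 to 0.849 FPKM. The log2 difference was -0.47 ± 0.09 (SE), with a limma adjusted p of 0.258 that ran from 0.0145 with array weights to 0.852 over the alternatives and was 0.0501 without C_O72 and MS_W95. The call was kept under all 22 alternatives that could be fitted for it. These do not include a fold taken from the limma difference, which at -0.47 is under the threshold of 1 in size. MS_W is shared with the comparison against C_W, so the values of MS_W enter both.

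Kcnab3, a beta subunit of Kcna channels, was 23.1, 17.4 and 20.2 FPKM in MS_W and 24.5, 56.4 and 47.1 FPKM in MS_O13, MS_O46 and MS_O78. The groups did not overlap, and MS_O13 was close to MS_W31. C_W lay between 27.2 and 46.6 FPKM and C_O between 21.03 and 39.6 FPKM, so that the 2 highest MS_O libraries were above all others. On the log2 scale the difference was 0.97 ± 0.33 (SE; limma adjusted p = 0.790), and the call was lost without MS_O46 (0.73), MS_O78 (0.86) or MS_W75 (0.87). Its exons overlap Kcnab3os on the other strand, which was 0.286 to 1.18 FPKM in MS_W and 0.730 to 2.34 in MS_O.

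Kcnk15 was 1.41, 0.480 and 0.170 FPKM in MS_W, and the groups overlapped. Its difference was, in log2 units, 1.03 ± 0.45 (SE; limma adjusted p = 0.815), and the call was lost without C_O72 and MS_W95 (0.80) and when any of 9 libraries was left out, with values from 0.74 without MS_O78 to 1.03. Only 7 of 23 alternatives kept the call. It was also lost with DESeq2, edgeR, a pseudocount of 0.1, no filter on low values, only the 2 groups compared and an ordinary linear model with library size.

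Without overlap, 9 members (11.2%) were higher in MS_O, against 4.64% of all genes, and 2 (2.5%), Kcnj5 and Kcnt1, were lower, against 7.66% of all genes. The 9 included Kcnh3, Kcnab3, Kcnh7, Kcnh5, Kcnj3, Kcnn1, Kcnmb4 and Kcnma1, of which Kcnn1, a small-conductance calcium-activated pore, was 2.46, 2.51 and 1.83 FPKM in MS_W and 3.58, 2.85 and 3.64 in MS_O. The median log2 difference was 0.08 over the members and -0.02 over all genes. The cortex and hippocampus genes summed to 53.6 to 142 FPKM in MS_W and to 229 to 270 in MS_O. The hypothalamus genes summed to 136, 125 and 14.4 FPKM in MS_W31, MS_W75 and MS_W95 and to 13.2 to 66.1 in MS_O, and 3 of the 10 tested were lower without overlap. The olfactory bulb genes summed to 16.7 to 84.2 FPKM in MS_W and to 213 and 222 FPKM in MS_O46 and MS_O78, the libraries of these 6 with the highest Kcnk15 and Kcnab3, and to 40.95 in MS_O13. The sum of inhibitory neurons was lower in MS_O without overlap (440 to 481 against 525 to 620 FPKM). Of its 7 genes, however, 0 were lower without overlap and 1, Vip, was higher. Pvalb, also on the cerebellum list, made up 396 FPKM of that sum in MS_W95. The part of these lists in the levels of the channel genes was not tested. Without C_O72 and MS_W95 the criteria called 1 member higher, Kcnab3 (1.41% of all genes), and 2 lower, Kcnj5 and Kcnn3 (1.95% of all genes). Leaving out MS_O13 brought 6 calls and leaving out MS_W31 brought 5, while leaving out MS_O78 or MS_W75 left 1, which was Kcnj5. The share of all genes called was 2.81% on 12 libraries, 4.38% without MS_O13, 3.9% without MS_W31, 2.16% without MS_O78 and 3.54% without MS_W75.

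**Figure D4:**
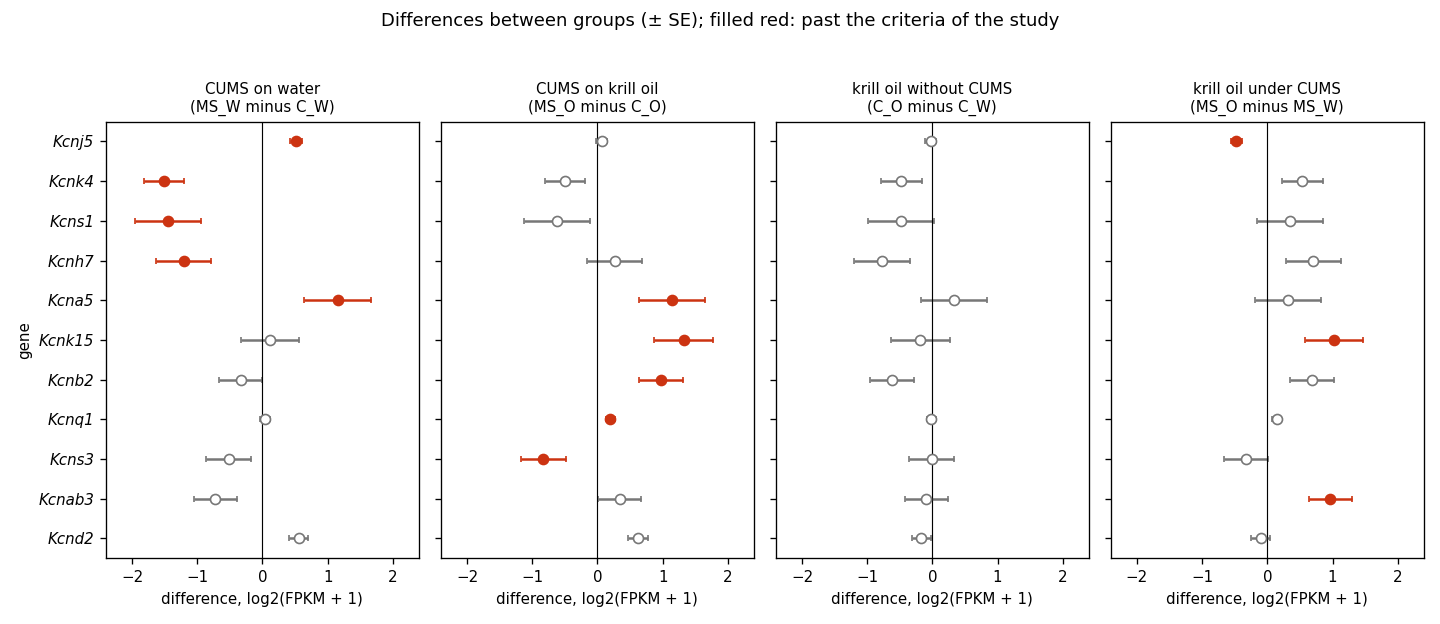
Differences between groups on the log2(FPKM + 1) scale ± SE for 10 called members and Kcnd2 in the 4 comparisons, with calls by the criteria of the study in filled red and others open. Kcnj5 is filled at 0.51 for MS_W minus C_W and at -0.47 for MS_O minus MS_W, and Kcna5 is filled in both CUMS comparisons, at 1.15 and 1.14.

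Whether the CUMS difference itself depended on the diet was tested as the interaction, the CUMS difference on krill oil minus that on water. No member passed the adjusted threshold in limma, edgeR or DESeq2 (0.0%, 0.0% and 0.757% of all genes), and 7 (8.75%) had a limma p under 0.05 before adjustment, against 7.23% of all genes. The smallest adjusted p was that of Kcnj5, 0.631, with an interaction of -0.45 ± 0.13 (SE) on the log2 scale. Kcnb2 (1.31 ± 0.47), Kcnh7 (1.48 ± 0.60), Kcnk4 (1.01 ± 0.44) and Kcnh6, another ERG-type pore (0.44 ± 0.18), followed, each with a limma adjusted p of 0.665. When C_O72 and MS_W95 were left out, no member passed (0.145% of all genes did), 8 had a p under 0.05 before adjustment (7.51% of all genes), and Kcnj5 again had the smallest limma adjusted p, 0.247, at -0.53 ± 0.12 (SE). The others were then 0.72 ± 0.35 for Kcnb2, 0.62 ± 0.30 for Kcnh7, 0.73 ± 0.44 for Kcnk4 and 0.37 ± 0.19 for Kcnh6. No member had every MS_W library on one side of C_W and every MS_O library on the other side of C_O.

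Kcne2 and Kcnj13 were among the 3 members with the widest spread over the libraries, with Kcng4. Both are expressed in the epithelium of the choroid plexus, which secretes cerebrospinal fluid. Kcne2 was 13.9 FPKM in C_O72, 7.08 in MS_W95, 2.17 in C_W1, 1.67 in C_O15 and 1.25 in MS_O13, and at most 0.342 in the other 7 libraries. Kcnj13 was 21.4 FPKM in C_O72, 6.70 in MS_W95, 4.63 in C_O15, 4.49 in C_W1 and 3.65 in MS_O13, and at most 1.36 in the other 7. Ttr, the transport protein that the choroid plexus makes in large amounts, was 4772 FPKM in C_O72, 1784 in MS_W95, 827 in C_W1, 804 in C_O15 and 612 in MS_O13, and at most 59.8 in the other 7. The 5 libraries with the highest Ttr were therefore the 5 highest for both channel genes, and they came from all 4 groups. Over the whole choroid plexus list (6 genes, none at the lowest listed value in every library) the sum ranged from 2.12 to 837 FPKM in C_W, 4.20 to 4813 in C_O, 7.15 to 1807 in MS_W and 7.06 to 620 in MS_O. Kcne2 and Kcnj13 met the criteria of the study in none of the 4 comparisons in limma.

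**Figure D5:**
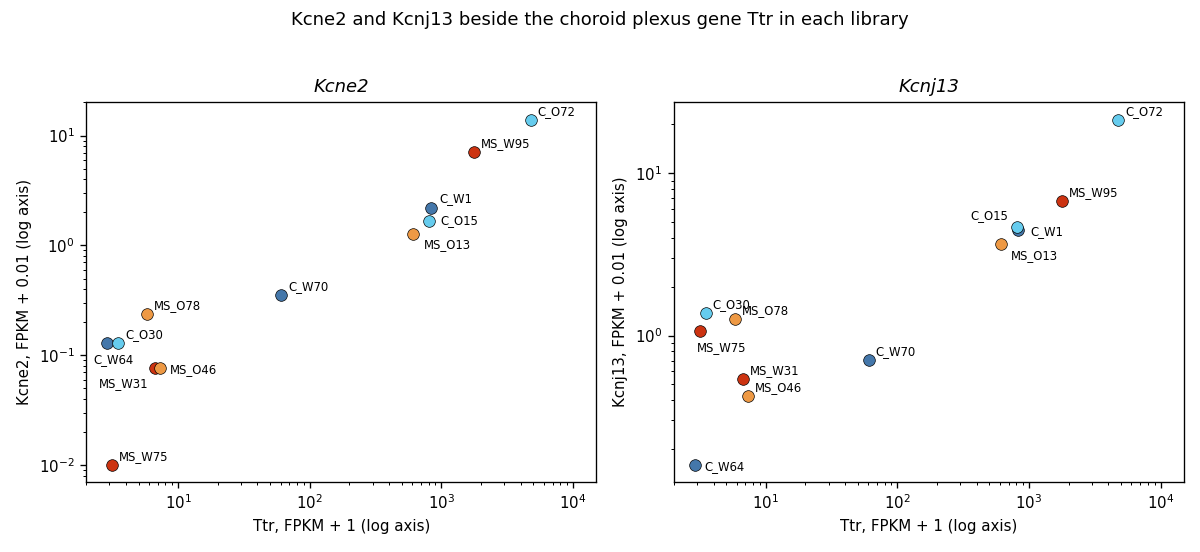
Kcne2 (left) and Kcnj13 (right) against Ttr in the 12 libraries on log axes, as FPKM + 0.01 for the channel genes and FPKM + 1 for Ttr, coloured by group. The libraries C_O72, MS_W95, C_W1, C_O15 and MS_O13 lie at the upper right in both panels, with Ttr from 612 to 4772 FPKM.

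The members with the smallest spread over the 12 libraries, among those with a mean of at least 1 FPKM, were Kcnn2 (coefficient of variation 15.3%), Kcna6, a Kcna pore (16.7%), and Kcnd1, a Kcnd pore (17.2%). Kcnn2 lay between 2.61 and 4.55 FPKM, Kcna6 between 4.94 and 9.84 and Kcnd1 between 2.17 and 3.87 FPKM. The largest were Kcne2 (186%), Kcng4 (176%) and Kcnj13 (153%). The median coefficient of variation was 38.2% over the 68 members at that level and 20.4% over all 13621 genes at that level.

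Among 16 genes for partners of these channels, such as Dpp6, Dpp10, the sulfonylurea receptors, the LRRC subunits of the BK channel and the Hcn pacemaker pores, 15 were expressed at 0.1 FPKM or more. By the criteria of the study 2 of the 15 were higher in MS_O than in C_O, where 2.82% of all genes were, and 1 was higher in MS_O than in MS_W, where 1.43% of all genes were. None was called in the 2 other comparisons or lower in any. Lrrc55, a gamma subunit of the BK channel, was called in both, at 5.505, 4.89 and 1.69 FPKM in C_O, 7.11, 5.515 and 1.499 in MS_W and 5.23, 17.8 and 13.7 in MS_O13, MS_O46 and MS_O78. Its log2 difference was 1.36 ± 0.54 against C_O (SE; limma adjusted p = 0.527) and 1.24 ± 0.54 against MS_W (adjusted p = 0.815). Hcn3 was 2.87, 4.18 and 3.14 FPKM in C_O and 3.54, 8.01 and 9.03 in MS_O, with a difference of 0.77 ± 0.29 (SE; limma adjusted p = 0.501). In both genes MS_O13 overlapped C_O and the other 2 MS_O libraries lay above it.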

How the data were processed

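Brain tissue of 12 mice, 3 per group, which the methods of the study describe as whole brain, was measured by RNA-seq, 1 library per mouse, so replicates are separate animals. Defining genes of cerebellum and hindbrain were near 0 in 10 of the 12 libraries. The authors filtered paired-end reads, aligned them, assembled and merged transcripts, and deposited FPKM and estimated counts per gene. The submitters' processing notes name cutadapt 1.9, HISAT2 2.0.4, StringTie 1.3.4d, edgeR, DESeq2 and build mm10. The libraries kept strand (dUTP), but the strand setting of counting and the treatment of reads that map more than once are not given in the sources used here. The deposited estimated counts are whole numbers that were taken as estimates, since their highest sums exceed the valid reads the paper lists for any library. The deposited FPKM of a gene without an estimate is listed at 0.0001. The members, lists and tests were chosen with earlier results of these data known.

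Genes with a mean of at least 0.1 FPKM (21393) entered 1 limma 3.58.1 fit of log2(FPKM + 1) on the 4 groups, in R 4.3.3, with Benjamini-Hochberg adjustment over all of them and a threshold of 0.05. The pseudocount of 1 understates changes of low genes. The criteria of the study were applied as a log2 ratio of group mean FPKM over 1 in size and a p before adjustment under 0.05. For edgeR and DESeq2 the log2 fold change of their own model took the place of that ratio. Single values of 3 against 3 libraries cannot give an exact permutation p under 0.1. Alternatives were another pseudocount, filter, scaling, weighting or model, fewer groups or libraries, and count tests of the estimated counts by DESeq2 1.42.0 and edgeR 4.0.16. The fitting code was tested on simulated data. Named genes were those called in a comparison, the most abundant of each of 14 families and the 5 most abundant in all, the 5 with the smallest p in each comparison, the 3 most and least variable, those next to the FPKM limit, and called partner genes. Other named genes were chosen after their values were seen. Exon overlaps were read from GENCODE M21 on GRCm38, where 81 of the 92 genes had the deposited start and end. Some genes are not reported here by name, though counts over the members include them.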

Additional observations from a re-analysis of the deposited data

How the results depend on the processing

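With limma on 12 libraries 0 members passed the adjusted threshold in each comparison. For MS_W against C_W, 2 passed with DESeq2 (1.87% of all genes) and 7 with array weights (3.85%). With only both groups compared 2 passed (0.566% of all genes), and 1 passed without C_O72 and MS_W95 (1.15%). For MS_O against C_O, 2 passed with DESeq2 (0.862% of all genes). For MS_O against MS_W, 1 passed with DESeq2 (0.373% of all genes) and 1 with array weights (0.491%). Leaving out 1 library gave 0 to 1 for MS_W against C_W, the 1 being without MS_W95 (0.271% of all genes). It gave 0 in the other comparisons and the interaction. Array weights were lowest for C_O72 (0.173) and MS_W95 (0.242).

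Members called by the criteria of the study for MS_W against C_W numbered 5 with limma on 12 libraries (4.59% of all genes). They numbered 8 with array weights (6.46% of all genes), 8 with median centring (5.3%) and 8 without C_O72 and MS_W95 (5.81%). An ordinary linear model with library size called 2 (1.87% of all genes), and leaving out 1 library gave 4 to 7 (3.49% to 5.63%). For MS_O against C_O (6, 3.57% of all genes) they numbered 0 with the ordinary linear model (0.636%). With 1 library left out they numbered 2 to 10 (2.22% to 5.85% of all genes). With the fold taken from the limma difference they numbered 2, for which no share of all genes is given. For C_O against C_W (0, 1.76% of all genes) they numbered 1 with DESeq2 (2.8%), 1 with edgeR (2.38%) and 1 with the ordinary linear model (2.27%). With 1 library left out they numbered 0 to 4 (1.17% to 4.15% of all genes). For MS_O against MS_W (3, 2.81% of all genes) they numbered 5 with array weights (4.17%). With 1 library left out they numbered 1 to 6 (2.16% to 4.38% of all genes). With the fold from the limma difference they numbered 1, again without a share of all genes. Kcns1 in MS_W against C_W turned to 0.0622 in the ordinary linear model. The cause was not tested.

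Over 14 results for single genes and 319 alternative values, 242 kept the call, 76 lost it in the same direction and 1 reversed. The fold from the limma difference is not among these alternatives. No paired analysis was possible because the groups share no replicate numbers. Depth limits genes such as Kcnk15 and Kcnq1, with 6 to 506 and 11 to 93 estimated counts.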
